A study of Mus musculus with 2 samples.

Results

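The nuclei described here are neurons of the mediobasal hypothalamus, chosen by a rule that includes genes known from the ventromedial hypothalamic nucleus (VMH). The VMH is the cell group that lies just dorsal to the arcuate nucleus (ARC). Most of the chosen nuclei carried Gpr149 but neither Nr5a1 nor Fezf1. The nuclei were selected on their measured counts of 9 genes. A nucleus was chosen when it passed the quality filters, carried at least 0.8 times as many ARC as PVH hashtag UMIs, held a UMI of at least 4 of the 8 genes Gpr149, Nr2f2, Slit3, Chst8, Megf11, Serpine2, Fezf1 and Tmem132d, and held a UMI of Gpr149, Fezf1 or Nr5a1. A UMI (unique molecular identifier) marks 1 captured RNA molecule, and a hashtag is an antibody with its own barcode, bound to nuclei so that preparations can be pooled and told apart later. The rule chose 90 of the 4395 ARC-side nuclei, which is 2.05% (exact 95% binomial interval 1.65 to 2.51), out of 11409 barcodes in the whole series. The levels of those 9 genes are therefore a description of the choice and not a result.

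The VMH is built largely of glutamatergic neurons and is known for its part in energy expenditure, the defence against low blood glucose, and defensive and social behaviour. Nr5a1 encodes steroidogenic factor 1 (SF-1), a nuclear receptor that in the brain is nearly restricted to the VMH and without which the nucleus does not form properly. Fezf1 encodes a zinc finger transcription factor of the same neurons, and the neuropeptide PACAP (encoded by Adcyap1) and the neurotrophin BDNF are among the signals that VMH neurons release. Gpr149 encodes an orphan G protein-coupled receptor.

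Tissue was microdissected from the ARC of wild-type male C57BL/6J mice aged 10 to 12 weeks, and neuronal nuclei sorted with an antibody to NeuN were sequenced on the 10x platform as 1 gene expression library with 1 hashtag library. The matrix held 2 hashtags, ARC and PVH, and neither tells the pooled mice apart, so all nuclei were treated as 1 sample, no test was made across nuclei, and every interval below covers counting error only. Of the 11409 barcodes, 10170 passed the filters, of which 5775 lay on the PVH side. The 2 hashtags were close in the ARC-side nuclei: their median ratio of ARC to PVH UMIs was 1.27 in the chosen nuclei and 1.24 in the 4305 other ARC-side nuclei, against 0.444 in the 5686 PVH-side nuclei that did not meet the gene rule, and HTODemux, the hashtag caller of Seurat, read 85 of the 90 chosen nuclei as ARC singlets and 5 as doublets of both hashtags. No caller for doublets within 1 hashtag was run. The chosen nuclei were deeper than the others, at a median of 5912 against 4756 UMIs and 2930 against 2631 genes, and in total held 567198 against 21818709 UMIs.

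The genes that define the label also chose the nuclei, so their shares describe the choice and are no check of it. Nr5a1 had 10 UMIs in 10 of the 90 chosen nuclei and 12 UMIs in 12 of the 4305 others, and Fezf1 had 7 UMIs in 7 chosen nuclei and 13 in 13 others. Thus 11.1% of the chosen nuclei (interval 5.46 to 19.5) carried Nr5a1 and 7.78% (3.18 to 15.4) carried Fezf1, and 1 nucleus carried both. Gpr149 was found in 80 chosen nuclei, and 74 of the 90 entered the choice through Gpr149 alone of the 3 genes. Stray RNA was gauged in the cluster with the highest Agrp level, whose neurons should lack SF-1. It held 669 nuclei at a median of 4871 UMIs. Nr5a1 was found in 0 of these nuclei, Fezf1 in 0.598% and Gpr149 in 1.35%. The 0 allows a share with a UMI of up to 0.448%, taking 3 nuclei as the limit in place of the binomial interval. Gpr149 was not as rare in every cluster: outside cluster 12, which held most of the chosen nuclei, its share ran from 0% up to 12.4%, in the cluster with the highest Pomc level (314 nuclei, median 5462 UMIs). The name VMH-like comes from the rule, which was met with Nr5a1 or Fezf1 RNA in a minority of the nuclei and with Gpr149 in most. These genes give no separate evidence of identity.

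Summed over nuclei, Nr5a1 was at 17.6 counts per 1000000 UMIs (CPM) in the chosen nuclei (exact Poisson interval 8.46 to 32.4) and 0.55 CPM in the others (0.284 to 0.961). Gpr149 was at 222 CPM (185 to 265) against 11.7 (10.3 to 13.3). Slit3, a secreted axon guidance ligand, was at 709 against 86.8 CPM. The transmembrane protein gene Tmem132d was at 485 against 85.6 CPM, and Megf11, which encodes a cell surface protein with EGF-like repeats, at 337 against 45.2. Chst8, a sulfotransferase gene, was at 104 against 14.9 CPM, Serpine2, a secreted inhibitor of serine proteases, at 93.4 against 15.5, and the nuclear receptor gene Nr2f2 at 77.6 against 12.2. These genes chose the nuclei, so their ratios had to lie above 1. A single nucleus held few molecules of most of them: the median was 4 UMIs of Slit3, 3 of Tmem132d, 1 of Gpr149 and of Megf11, and 0 of the other 5 genes. The number of the 8 genes found was 4 in 40 chosen nuclei, 5 in 34, 6 in 12 and 7 in 4.

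**Figure D1:**
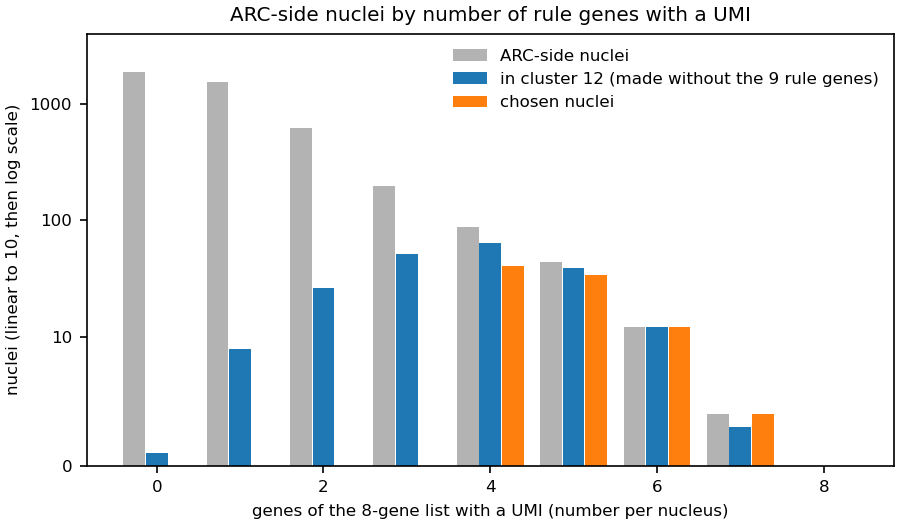
Number of ARC-side nuclei (vertical axis, linear to 10 and logarithmic above) by how many of the 8 rule genes had a UMI in the nucleus (horizontal axis), for all ARC-side nuclei, for nuclei of cluster 12 and for the chosen nuclei. No nucleus had a UMI of all 8 genes, and 51 nuclei of cluster 12 with 3 of the genes fell just outside the rule.

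Nuclei near the threshold were compared with no test. Just inside it, the 40 nuclei with exactly 4 of the 8 genes had Slc17a6 at 84.8 CPM, Arpp21 at 606 CPM and Gad2 at 76.3 CPM, and the 50 with 5 or more had 163, 604 and 45.3 CPM. Just outside it, 56 nuclei with 3 of the 8 genes and a UMI of Gpr149, Fezf1 or Nr5a1 had Slc17a6 at 41.2, Arpp21 at 221 and Gad2 at 118 CPM, and 58 nuclei with at least 4 of the 8 genes but none of those 3 had 80.5, 440 and 89.1 CPM.

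To see whether the chosen nuclei belonged together by genes the rule did not use, the ARC-side nuclei were clustered after the 9 rule genes had been removed. Of the 16 clusters, 1 (cluster 12, 205 nuclei) held 82 of the 90 chosen nuclei, or 91.1%. The share in 1 cluster was also 91.1% at a lower and a higher resolution. It held 90.0% of the 40 chosen nuclei with exactly 4 of the 8 genes and 92.0% of those with more, but 17 of the 56 nuclei with 3 of them and a UMI of Gpr149, Fezf1 or Nr5a1, or 30.4%, and 62.1% of the 58 with at least 4 and none of those 3. The other 8 chosen nuclei lay in 5 clusters, 4 of them in cluster 1. These 8 were deep, at a median of 9280 UMIs, each carried Gpr149 but neither Nr5a1 nor Fezf1, and 7 of them held a single Gpr149 UMI. Cluster 12 also held 123 nuclei that were not chosen, 26 of which carried Gpr149, Fezf1 or Nr5a1, and their median depth was 4875 UMIs.

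Nr5a1, Fezf1 and Gpr149 had no part in the clustering, but cluster 12 is singled out here because it held most of the chosen nuclei, so its levels of these genes follow in part from the rule. Of the 205 nuclei of cluster 12, 14 carried Nr5a1, or 6.83% (3.78 to 11.2), 10 of them chosen nuclei, as did 8 of the 4190 ARC-side nuclei outside it, or 0.191% (0.0825 to 0.376). Fezf1 was found in 8 nuclei of cluster 12, 7 of them chosen, and in 12 outside it, and Gpr149 in 94 and 181. Among the 123 nuclei of cluster 12 that the rule had left out, 4 carried Nr5a1, which is 3.25% (0.893 to 8.12), and 1 carried Fezf1. Of the genes listed for VMH identity, the 2 outside the rule, Adcyap1 and Bdnf, were at least 1.5-fold higher in cluster 12 than in the other ARC-side nuclei, as were Prdm12 of the 5 POMC genes and Nkx2-4 and Grp of the 7 genes of the dorsomedial and lateral hypothalamus. None of the 5 listed genes of AGRP neurons, of KNDy neurons (the kisspeptin, neurokinin B and dynorphin cells) or of the PVH was.

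**Figure D2:**
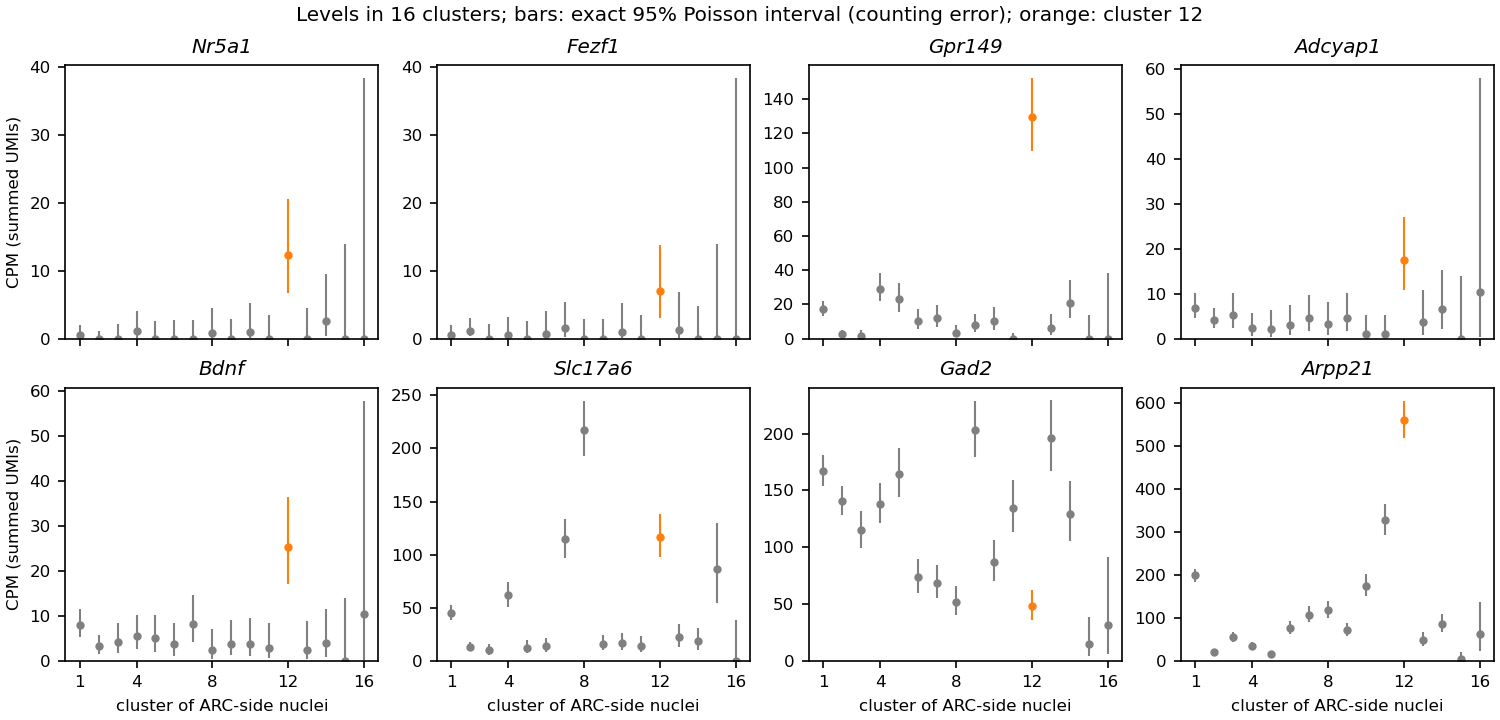
Summed CPM (vertical axes) of 8 genes in the 16 clusters of ARC-side nuclei (horizontal axes), with exact 95% Poisson intervals; cluster 12, which held 82 of the 90 chosen nuclei, is orange. Nr5a1, Fezf1 and Gpr149 peak in cluster 12 with Arpp21, while Slc17a6 is highest in cluster 8, at 218 CPM, and the wide intervals of clusters 15 and 16 come from few nuclei.

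The chosen nuclei had a glutamatergic profile. Slc17a6, the gene of VGLUT2, the transporter that loads glutamate into vesicles, had 74 UMIs in 47 of 90 nuclei, or 130 CPM (102 to 164), against 44.2 CPM (41.4 to 47.1) in the others, a log2 ratio of 1.56 (1.20 to 1.90). The genes of GABA synthesis and release were lower: Gad2 was at 58.2 against 128 CPM, a log2 ratio of -1.14 (-1.68 to -0.65), Gad1 at 19.4 against 64.9 CPM, a log2 ratio of -1.74, and the vesicular GABA transporter gene Slc32a1 at 19.4 against 37.5 CPM, a log2 ratio of -0.95. Slc17a6 without Slc32a1 was found in 42 chosen nuclei, Slc32a1 without Slc17a6 in 6, both in 5 and neither in 37. At an equal depth of 2000 UMIs per nucleus Slc17a6 was found in 23.3% of the chosen and 7.87% of the other nuclei, against 52.2% and 15.7% at full depth, and the log2 ratio of its level at 2000 UMIs was 1.57. Slc17a8, a second vesicular glutamate transporter gene, had 6 UMIs in the chosen nuclei, 10.6 against 2.48 CPM, and Slc17a7 had none. These ratios came out smaller in size in some smaller sets of nuclei, where UMIs were few and no interval was taken. With the ARC hashtag at least 2 times the PVH hashtag, 14 nuclei were left, 10 of them in cluster 12. Slc17a6 then had a log2 ratio of 0.45, from 6 UMIs, and Gad2 one of -0.12, from 12 UMIs. When the rule was applied after thinning they were 0.10, from 2 UMIs in 20 nuclei, and -0.001, from 5 UMIs.

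Over all genes with at least 250 UMIs in the ARC-side nuclei, 210 of 10340, or 2.03%, were at least 2-fold higher in the chosen nuclei, 7 of them rule genes, and 706, or 6.83%, were at least 2-fold lower. The median log2 ratio of the tested genes was -0.15. A gene at 250 UMIs had 6.33 UMIs expected in the chosen nuclei, so counting error alone places some genes past 2-fold. The 210 genes had a median length of 117 kb against 33.6 kb for all tested genes, and the part of length in these ratios was not tested.

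The 25 leading genes, ranked by ratio among genes with at least 30 UMIs in the chosen nuclei, held 7 of the rule genes and 18 others. This floor lay in the chosen nuclei, so genes outside the tested set could enter. Gm36431, Hmcn2, Slc24a4, B130024G19Rik and 3110009E18Rik had fewer than 250 UMIs over the ARC-side nuclei and were not among the tested genes. Transcriptional regulators were among the 18 others. Bcl11b, which encodes the zinc finger factor CTIP2, was at 67.0 against 10.7 CPM, in 20 nuclei, a log2 ratio of 2.64 (2.11 to 3.14). The LIM-only genes Lmo4 and Lmo3, whose products bridge transcription factors, were at 102 against 18.8 and 213 against 50.1 CPM. Arpp21, which encodes a phosphoprotein regulated by cyclic AMP, had 343 UMIs in 83 of the 90 nuclei, 605 against 110 CPM, and was 5.52-fold higher. It was the most widely found of the leading genes outside the rule.

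Others of the 18 encode proteins of the matrix or membrane. Hmcn2, which encodes the matrix protein hemicentin-2, was at 74.1 against 7.56 CPM, a log2 ratio of 3.29 (2.77 to 3.79), and the laminin gene Lama1 at 74.1 against 15.0 CPM. Slc24a4, a potassium-dependent sodium and calcium exchanger gene, was at 52.9 against 5.59 CPM. The cannabinoid receptor gene Cnr1 was at 77.6 against 17.4 CPM, the glycine receptor subunit gene Glra1 at 95.2 against 22.6, and Ros1, a receptor tyrosine kinase gene, at 58.2 against 11.3. The rest were genes with provisional Gm or Rik symbols, led by Gm36431 with a log2 ratio of 3.71. Of these, B130024G19Rik overlaps Nr2f2 on the opposite strand, E130114P18Rik overlaps Nfia on the opposite strand, and Gm5149 and Gm30382 overlap each other, so their counts may not be independent. The unchosen nuclei of cluster 12, which count among the others here, also held these genes, some at a higher level than the chosen nuclei: E130114P18Rik was at 154 CPM there against 68.8, B130024G19Rik at 101 against 67.0 and Gm36431 at 71.5 against 54.7, with 46 of the 91 Gm36431 UMIs of the other nuclei.

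**Figure D3:**
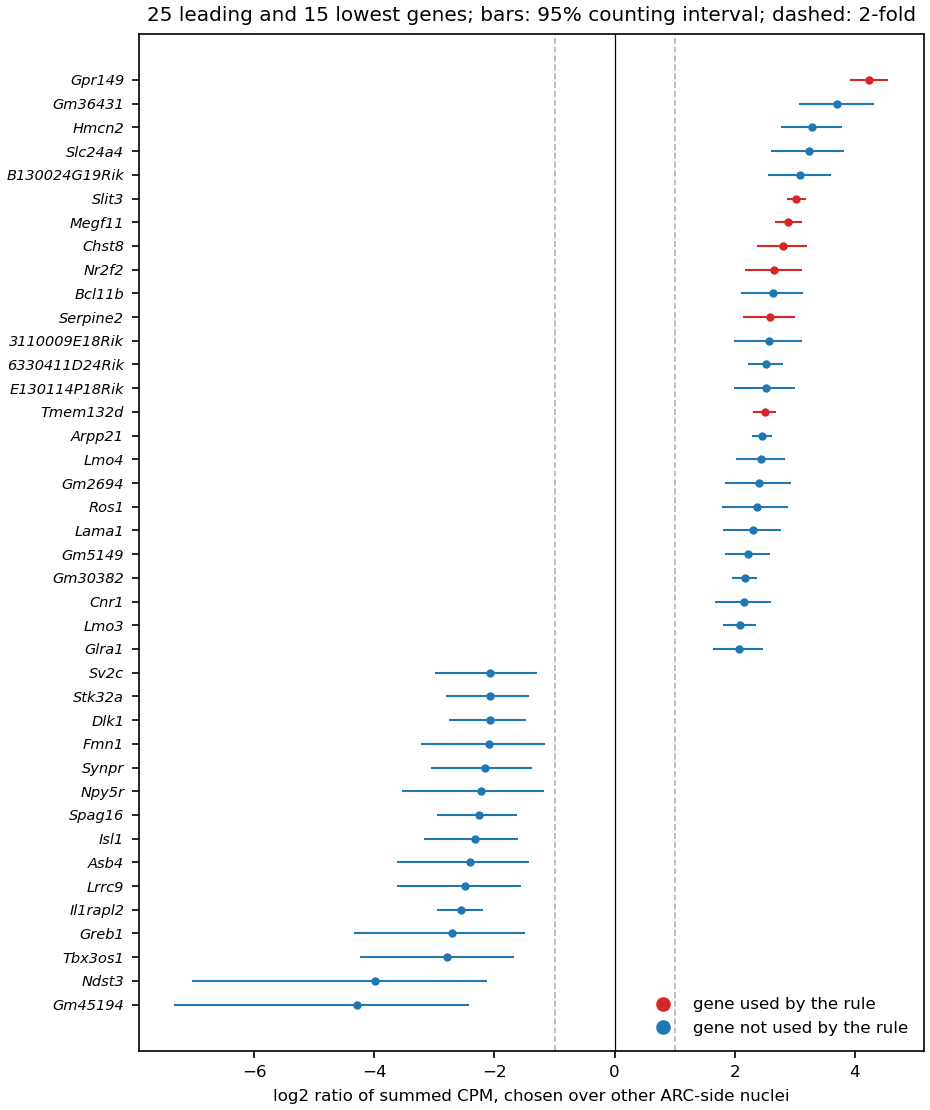
Log2 ratio of summed CPM (horizontal axis, chosen over other ARC-side nuclei) of the 25 leading and 15 lowest genes, with 95% counting intervals; red marks the rule genes and the dashed lines 2-fold. The leading genes lie between 2.07 and 4.24 and the lowest between -4.29 and -2.08.

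The 15 lowest genes, taken among genes with at least 30 UMIs expected, had log2 ratios from -4.29 to -2.08. Ndst3, which encodes an enzyme of heparan sulfate synthesis, had 2 UMIs in the chosen nuclei, 3.53 against 55.8 CPM, a log2 ratio of -3.98 (-7.03 to -2.13). Gm45194 had 2 UMIs, 3.53 against 68.8 CPM. Isl1, a LIM homeodomain factor of ARC neurons, was at 26.5 against 133 CPM, a log2 ratio of -2.33. Tbx3os1, the antisense neighbour of the ARC factor Tbx3, had a log2 ratio of -2.79, and Tbx3 itself one of -1.76. The neuropeptide Y receptor gene Npy5r was at 12.3 against 57.9 CPM, the delta-like gene Dlk1 at 38.8 against 164, and Synpr and Sv2c, genes of synaptic vesicle proteins, had log2 ratios of -2.15 and -2.08.

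Of the VMH identity genes, Adcyap1 and Bdnf were the only 2 outside the rule. Adcyap1 had 9 UMIs in 9 chosen nuclei, 15.9 CPM (7.26 to 30.1) against 4.45 (3.61 to 5.42), a log2 ratio of 1.84 (0.66 to 2.82). Bdnf had 13 UMIs in 11 chosen nuclei, 22.9 CPM (12.2 to 39.2) against 5.36 (4.44 to 6.43), a log2 ratio of 2.10 (1.14 to 2.93). With the ARC hashtag at least 2 times the PVH hashtag, Bdnf had 1 UMI in 14 nuclei and a log2 ratio of 0.47, and the 20 nuclei that met the rule after thinning held 0 UMIs of either gene. Both genes were above the level of the other nuclei also in the 123 unchosen nuclei of cluster 12, at 18.6 and 24.9 CPM. Their receptors were not marked in the chosen nuclei: Ntrk2, the BDNF receptor gene, was at 360 against 372 CPM and the PACAP receptor gene Adcyap1r1 at 28.2 against 38.9. Of the 13 genes of PACAP and BDNF signalling, 3 were tested, with a median log2 ratio of -0.05, and 0 passed 2-fold. The counts for this and each further list stand beside 2.03% of all tested genes at least 2-fold higher, 6.83% at least 2-fold lower and the median of -0.15.

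Among 16 genes tied to VMH development or to SF-1, 7 reached 250 UMIs, with a median log2 ratio of 1.00, of which 3 were at least 2-fold higher (Cnr1, Rreb1 and the splicing factor gene Rbfox1, at 5550 against 1738 CPM) and 1, Isl1, at least 2-fold lower. Of the 9 below that count, 3 had an interval above 0: the SRY-box factor gene Sox14 had 14 UMIs in 14 nuclei, 24.7 against 4.4 CPM, a log2 ratio of 2.49 (1.56 to 3.30), the neuronal pentraxin gene Nptx2 had 15 UMIs in 15 nuclei, a log2 ratio of 2.42 (1.53 to 3.20), and Lypd1 had 11 UMIs, a log2 ratio of 1.56 (0.52 to 2.44). Of the others, the homeobox genes Hmx2 and Hmx3 had 0 UMIs in the chosen nuclei, Amigo2 had a log2 ratio of -0.43 (-2.32 to 0.95), and Nkx2-2, Vgll2 and Cbln2 had 1 to 3 UMIs each. Nkx2-1, a factor of the whole mediobasal hypothalamus, was at 14.1 against 14.2 CPM. The genes known from the ventrolateral VMH did not move as 1 group: of 9 tested, with a median log2 ratio of -0.72, 4 were at least 2-fold lower (Esr1, Pgr, Npy2r and Dlk1) and 2 at least 2-fold higher, among them the transcription factor gene Nfib, at 134 against 46.5 CPM, a log2 ratio of 1.53 (1.17 to 1.86). The oestrogen receptor gene Esr1, which defines ventrolateral VMH neurons, was at 35.3 against 118 CPM. Of the 7 genes under 250 UMIs, Cckar, Oxtr, Moxd1 and Nup62cl had 0 UMIs in the chosen nuclei, which at this depth does not show a difference, since the intervals of their log2 ratios reached 0.98 or more, and Nts, Rprm and Pdyn had log2 ratios of 0.76, 0.48 and -0.26 with intervals that held 0. The other nuclei include Esr1-rich ARC clusters, up to 478 CPM in cluster 8. Sox14 was at 25.5 CPM in that cluster, which held 0 chosen nuclei, and at 25.4 CPM in cluster 12. Its level was thus not particular to the chosen nuclei.

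Sequence was examined for the motif that SF-1 is known to bind, whose core is AGGTCA. Promoter windows of 250 bases before to 50 after the start (RefSeq, GRCm38.p6) were found for 21 of 29 genes, the leading 25 and the VMH identity genes, with 41 windows in all. AGGTCA or its reverse complement TGACCT was in 4 of the 41 windows (9.76%), against 16.3% of all 32851 windows, so the core was not more frequent in these windows than in promoters at large. The windows of Fezf1, as the VMH factor with no match, and of 3 genes with a match that were higher in the chosen nuclei are given 5' to 3', with matches to the core in capitals. A match of 6 bases is a description and not a binding site.
Fezf1, chr6:23248215-23248514, minus strand: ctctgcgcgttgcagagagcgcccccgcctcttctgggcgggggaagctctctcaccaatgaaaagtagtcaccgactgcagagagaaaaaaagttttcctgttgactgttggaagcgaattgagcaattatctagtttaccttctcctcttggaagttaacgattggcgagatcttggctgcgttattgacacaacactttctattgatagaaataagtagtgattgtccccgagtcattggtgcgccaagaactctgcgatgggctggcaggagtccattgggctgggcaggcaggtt
Bdnf, chr2:109692777-109693076, plus strand: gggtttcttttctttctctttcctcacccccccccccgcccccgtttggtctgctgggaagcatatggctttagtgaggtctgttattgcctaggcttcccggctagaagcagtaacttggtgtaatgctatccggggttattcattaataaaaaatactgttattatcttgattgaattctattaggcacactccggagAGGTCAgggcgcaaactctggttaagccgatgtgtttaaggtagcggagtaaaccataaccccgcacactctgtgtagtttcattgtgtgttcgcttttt
Cnr1, chr4:33924014-33924313, plus strand: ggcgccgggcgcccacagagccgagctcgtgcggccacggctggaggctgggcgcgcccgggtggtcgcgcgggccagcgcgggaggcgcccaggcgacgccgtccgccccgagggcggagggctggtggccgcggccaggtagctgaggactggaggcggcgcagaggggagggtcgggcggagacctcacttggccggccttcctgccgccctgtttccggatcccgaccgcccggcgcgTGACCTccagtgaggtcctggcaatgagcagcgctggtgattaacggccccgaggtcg
Arpp21, chr9:112217212-112217511, minus strand: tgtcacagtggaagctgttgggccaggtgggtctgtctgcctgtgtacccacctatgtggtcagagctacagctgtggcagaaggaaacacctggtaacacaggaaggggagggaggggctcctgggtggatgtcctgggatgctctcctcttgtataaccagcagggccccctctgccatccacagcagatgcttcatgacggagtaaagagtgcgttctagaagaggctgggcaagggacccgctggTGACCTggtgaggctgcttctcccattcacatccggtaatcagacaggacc

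Of 14 tested receptors for metabolic hormones and peptides, with a median log2 ratio of -0.63, 0 were at least 2-fold higher, beside 2.03% of all tested genes, and 5 at least 2-fold lower, beside 6.83%: the leptin receptor gene Lepr, at 17.6 against 45.0 CPM with a log2 ratio of -1.35 (-2.42 to -0.47), the calcitonin receptor gene Calcr, at 14.1 against 40.5, Npy2r, Npy5r and Crhr1, the last from 1 UMI with a log2 ratio of -2.92 (-8.23 to -0.43). Lepr was uneven over the ARC-side clusters, at 119 CPM in cluster 2 and 112 in cluster 4 but 9.29 in cluster 5, 5.82 in cluster 6 and 4.79 in cluster 11. A low Lepr level was thus not particular to the chosen nuclei. The insulin receptor gene Insr was level, at 89.9 against 91.3 CPM, and the orexin receptor gene Hcrtr2 was at 89.9 against 53.9, a log2 ratio of 0.74 (0.30 to 1.14). Among the 11 receptor genes under 250 UMIs, the other orexin receptor gene Hcrtr1 had 5 UMIs and a log2 ratio of 2.06 (0.37 to 3.39), and the serotonin receptor gene Htr1b had 10 UMIs, 17.6 against 6.51 CPM, a log2 ratio of 1.44 (0.35 to 2.36). Of the other 9, Ghsr, Mc4r, Gipr and Gcgr had 0 UMIs in the chosen nuclei, and the intervals of Crhr2, Cckbr, Mc3r, Mchr1 and the GLP-1 receptor gene Glp1r, the last at a log2 ratio of -0.98 (-4.04 to 0.90), held 0. Of 5 steroid receptors tested, with a median log2 ratio of -0.64, Esr1 and the progesterone receptor gene Pgr (28.2 against 72.0 CPM) were at least 2-fold lower, while the glucocorticoid and mineralocorticoid receptor genes Nr3c1 and Nr3c2 had log2 ratios of -0.02 and -0.05. All 10 tested genes of glucose sensing and fuel use lay within 2-fold, among them Abcc8, a subunit of the ATP-sensitive potassium channel, at 40.6 against 29.2 CPM.

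Of 12 tested relatives of the rule genes, with a median log2 ratio of -0.23, 1 was at least 2-fold higher and 1 at least 2-fold lower. Over all tested genes the shares were 2.03% and 6.83%, and no difference from them was tested. Slit2 was at least 2-fold higher, at 252 against 83.3 CPM, beside the rule gene Slit3, and Slit1 was at 116 against 118. Their receptor genes Robo1 and Robo2 had log2 ratios of 0.86 and 0.49. Tmem132b, a relative of Tmem132d, had a log2 ratio of 0.96. Nr5a2, the closest relative of Nr5a1, had 0 UMIs in the chosen nuclei against 29.4 CPM in the others, so it was at least 5.56-fold lower, taking 3 UMIs over the chosen nuclei as the floor. Of 25 voltage-gated channel genes, with a median log2 ratio of 0.15, 2 potassium channel genes were at least 2-fold higher, Kcnq3 at 913 against 307 CPM and Kcnh7 at 527 against 243, and 0 were at least 2-fold lower. Of the 2 immediate early genes tested, Nr4a1 was at 31.7 against 13.2 CPM and Jun at 7.05 against 18.6.

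**Figure D4:**
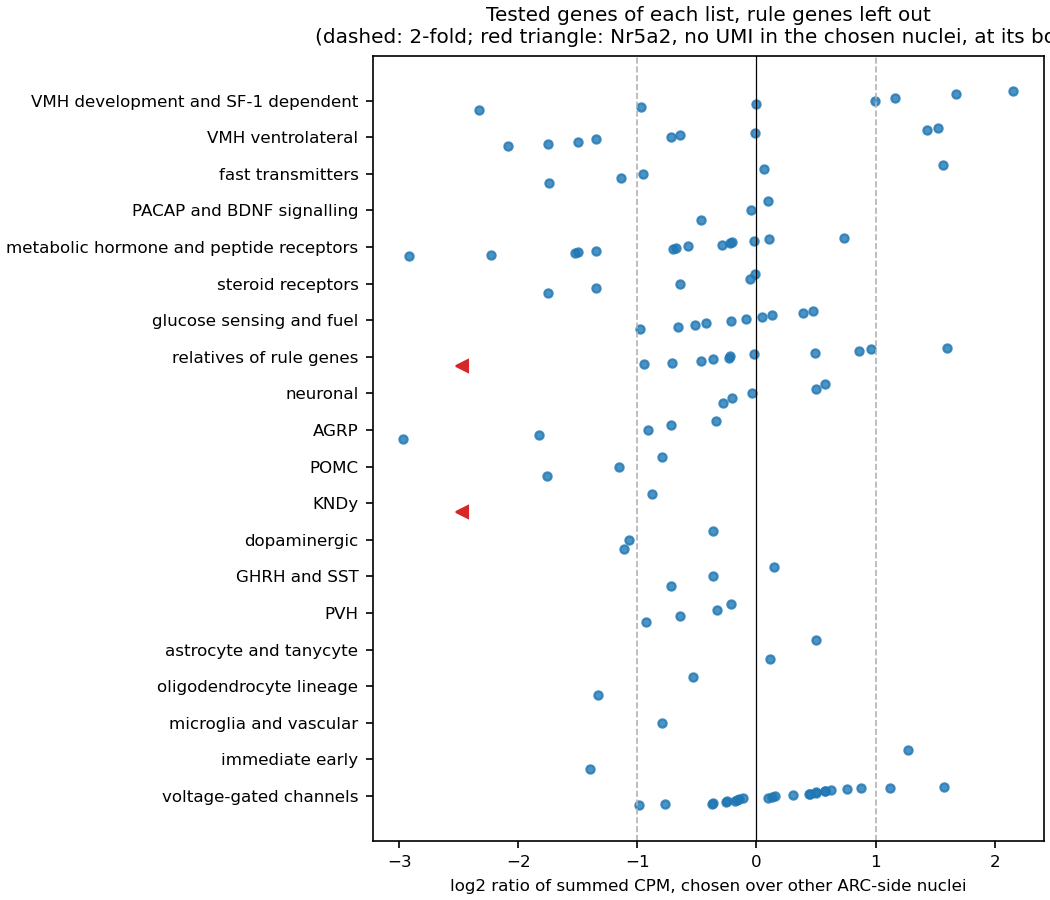
Log2 ratio of summed CPM (horizontal axis, chosen over other ARC-side nuclei) of each tested gene by list, 1 point per gene, with rule genes left out and dashed lines at 2-fold. Most points lie between the lines. The list of VMH development holds 3 points past the right line and 1 past the left, and the ventrolateral VMH list 2 and 4. The channel list holds 2 and 0. Nr5a2, shown at its bound, has no UMI in the chosen nuclei.

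The marker lists of other cell types summed to less in the chosen than in the other nuclei, except that of astrocytes and tanycytes, and no list was absent. Of the 5 genes listed for AGRP neurons, with a median log2 ratio of -0.91, 0 were at least 2-fold higher and 2 at least 2-fold lower, Corin and Otp, and their summed level was 229 against 410 CPM. Agrp itself had UMIs in 35 chosen nuclei, 95.2 against 179 CPM. The listed POMC genes summed to 145 against 307 CPM, the KNDy genes to 19.4 against 63.8 and the dopaminergic genes to 56.4 against 102. The astrocyte and tanycyte markers summed to 88.2 against 86.2 CPM, with Agt, Aqp4, Gja1, Rax and Vim, 5 of 8, at 0 UMIs. The oligodendrocyte lineage genes summed to 67.0 against 114 CPM and the microglial and vascular genes to 21.2 against 31.3. Crh of the PVH list and Grp, with 4 UMIs each, had log2 ratios of 1.12 (-0.80 to 2.54) and 1.22 (-0.70 to 2.65). The neuronal gene Snap25 was at 605 against 698 CPM. Oxt, the oxytocin gene, had UMIs in 94.4% of the chosen and 90.3% of the other nuclei, at 492 and 572 CPM, and Avp in 71.1% and 74.9%. At 2000 UMIs per nucleus the Oxt shares were 65.6% and 66.4%.

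The chosen nuclei varied among themselves. Relative to counting error scaled by depth, the variance over the 90 nuclei was at a median of 1.11 times the Poisson value for 4091 genes with at least 30 UMIs, above 2 for 246 genes and above 5 for 35. The highest of the 25 leading genes was E130114P18Rik, at 7.41, whose 39 UMIs lay in 8 nuclei with up to 10 in 1 nucleus. Rbfox1 was at 8.43 and the potassium channel interacting protein gene Kcnip4 at 9.88. Beyond Malat1, at 22.6, the proteoglycan gene Gpc5 had 222 UMIs in 39 nuclei with up to 43 in 1 nucleus, a ratio of 13.5, and the teneurin gene Tenm2 had 1 to 81 UMIs per nucleus around a median of 28. Slc17a6 was at 1.14 and Gad2 at 1.18, while Nfib was at 3.60. With means of 0.82 UMIs of Slc17a6 and 0.37 of Gad2 per nucleus, ratios near 1 do not show that the nuclei were alike.

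Nfib, a gene singled out after its values were seen, had a UMI in 28 of the 90 chosen nuclei, with up to 8 UMIs in 1 nucleus, in 59 of the 123 unchosen nuclei of cluster 12 and in 20 of the 89 PVH-side nuclei that met the same gene rule. Of the 39 UMIs of E130114P18Rik in the chosen nuclei, 39 lay in nuclei that carried Nfib, against 73 of 99 in the unchosen nuclei of cluster 12 and 18 of 20 in the PVH-side nuclei. The UMIs of E130114P18Rik came from 8, 35 and 6 nuclei of these sets, and UMIs of 1 nucleus are not independent. Of the 10 chosen nuclei with Nr5a1, 5 carried Nfib and 5 did not.

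On the PVH side, 89 of 5775 nuclei (1.54%, interval 1.24 to 1.89) met the gene part of the rule. HTODemux read 48 of them as PVH singlets, 13 as doublets of both hashtags, 27 as negative and 1 as ARC. When all 10170 nuclei were clustered together, 78 of the 90 chosen nuclei and 48 of these 89 fell in 1 cluster of 336 nuclei, which took in 4.57% of the ARC-side and 2.34% of the PVH-side nuclei. Nr5a1 was at 15.3 CPM in the PVH-side nuclei and 17.6 CPM in the chosen ones, both chosen by a rule that counts it. The sets differed in genes outside the rule: Sim1, the factor that defines PVH neurons, was at 7.05 against 35.8 CPM, a log2 ratio of -2.34 (-4.35 to -0.78), and Ndst3 at 3.53 against 37.5 CPM. The 18 leading genes outside the rule were ranked by their ratio in the chosen nuclei, so their comparison with the PVH-side nuclei is a description: 13 had an interval above 0, such as Lmo3 at 213 against 80.2 CPM, and 5 did not, namely Slc24a4, Gm2694, B130024G19Rik at a log2 ratio of -0.06, Ros1 at 0.14 and Cnr1 at 0.38 (-0.30 to 1.06). Slc17a6 was at 130 against 88.7 CPM, a log2 ratio of 0.56 (0.03 to 1.10). The hashtag and the dissected tissue cannot be told apart from each other here.

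The chosen nuclei were also set against the 578 other ARC-side nuclei with Slc17a6 and no Slc32a1. The sets are not matched for transmitter: 42 of the 90 chosen nuclei had Slc17a6 without Slc32a1, and Slc17a6, which selected the 578, was at 261 CPM in them against 130. The rule gene Nr5a1 had 0 UMIs in them, which does not show that they lack its RNA. Among genes already described as high in the chosen nuclei, the log2 ratio was 2.00 for Arpp21, 2.02 for Lmo3, 2.89 for Hmcn2 and 1.28 for Kcnq3. Esr1 was lower still, at a log2 ratio of -2.30, as was Ndst3, at -4.07. Lepr had a log2 ratio of -0.97 and Gad2 of -0.61.

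**Figure D5:**
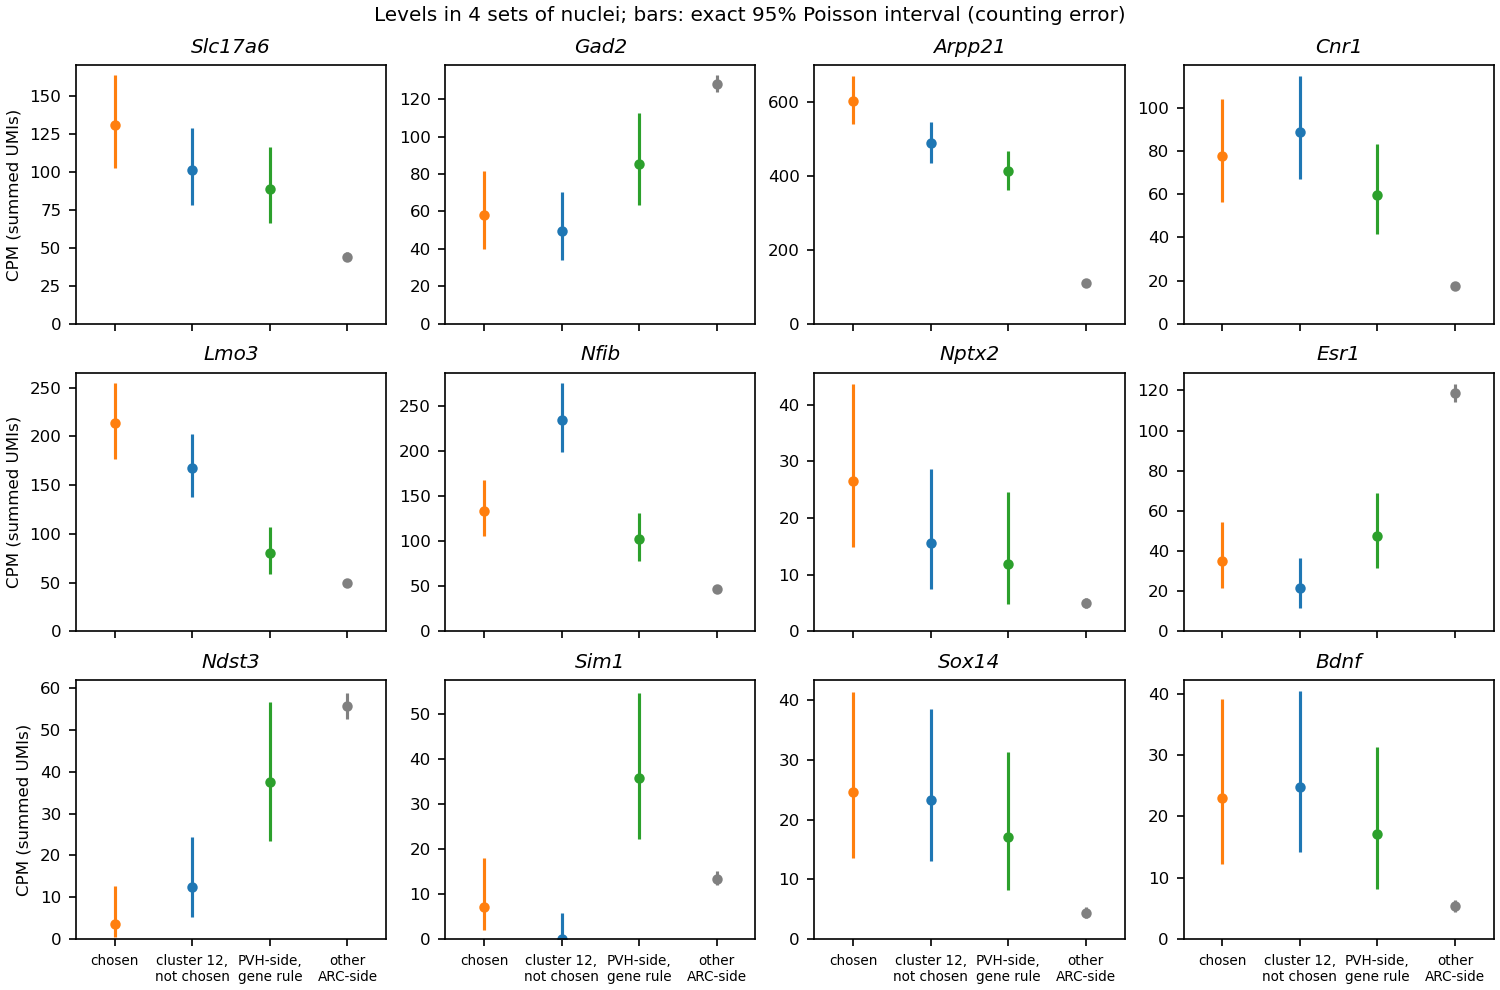
Summed CPM (vertical axes) of 12 genes in the chosen nuclei, the unchosen nuclei of cluster 12, the PVH-side nuclei that met the gene rule and the other ARC-side nuclei, with exact 95% Poisson intervals. The first 2 sets lie close for Slc17a6, Gad2, Cnr1, Sox14 and Bdnf, Nfib is highest in the unchosen nuclei at 235 CPM, and Sim1 and Ndst3 separate the PVH-side nuclei from the chosen ones.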

How the data were processed

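The authors deposited whole-number counts of UMIs per gene and barcode, without normalization, for 32285 genes, 2 hashtags and 11409 barcodes. The submitters' processing notes name Cell Ranger 5.0, Seurat 4 and mm10, and the matrix header names Cell Ranger 4.0.0. Columns with over 800 and under 5000 genes, at most 12000 UMIs and at most 1% mitochondrial UMIs were kept, which are the study's limits on these measures. The study further kept hashtag singlets alone. Here the hashtag ratio was used, so the other ARC-side nuclei included 248 doublets of both hashtags and 479 negatives. The authors' annotation of nuclei was not used here, and some listed genes are not reported here.

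From these counts, UMIs were summed over nuclei and given as CPM, since with 1 pooled library no count model or test applies. Intervals are 95% and exact: Poisson for CPM, binomial for shares and for the log2 ratio of 2 levels. Genes with at least 250 UMIs over the ARC-side nuclei count as tested, and 2-fold is the mark for a call. HTODemux (Seurat 5.3.0, R 4.3.3, positive quantile 0.8) gave the hashtag classes. Clustering used 2000 variable genes, 30 components, 20 neighbours and the Leiden method at resolution 0.55, with the 9 rule genes left out. Sums were made in Python 3.11.15 with scipy 1.17.1. Shares at equal depth were taken after thinning to 2000 UMIs, which left out 0 chosen and 138 other nuclei. Positions come from GENCODE M21 on GRCm38, which matched 32235 gene identifiers.

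The text names every gene of the lists that bears on a result, the 25 genes with the largest ratio (at least 30 UMIs in the chosen nuclei and 50 in all) and the 15 with the smallest (at least 30 expected). The members, the lists and the rule were chosen with earlier results of these data known. On simulated sums for this comparison, over 10340 genes with 200 raised 4-fold, 100% of the raised and 0.09% of the unchanged genes came out at least 2-fold higher, and 1.77% of the unchanged at least 2-fold lower. These sums were drawn as Poisson counts, with no added variance among nuclei and no choice of nuclei by their counts. The shares hold for that model and give no error rate for the calls in the data. Other hashtag limits, numbers of rule genes, filters, depths and comparison nuclei were tried, and 3 alternatives were added after the data were seen.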

Additional observations from a re-analysis of the deposited data

How the results depend on the processing

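Of 92 alternative values, 67 stayed close to the reported one: within its counting interval, or within 1.5 times for a count of genes. No log2 ratio that had a value changed sign, though some came close to 0. Keeping nuclei with the ARC hashtag at least 2 times the PVH hashtag left 14 chosen nuclei, a share of 2.59%, with 78 genes at least 2-fold higher and 214 lower of fewer tested, and log2 ratios of 0.45 for Slc17a6, -0.12 for Gad2 and 0.47 for Bdnf. Asking for 3 of the 8 genes gave a share of 3.32%, 126 and 344 genes and 1.13 for Slc17a6. Asking for 5 gave 1.14% and 1077 lower genes, and dropping the need for Gpr149, Fezf1 or Nr5a1 gave 3.37% and 394 lower genes. Thinning every nucleus to 2000 UMIs before the choice left 20 nuclei, all of them among the 90 and 19 in cluster 12, a share of 0.470%, 493 and 1688 genes, 0.10 for Slc17a6 and -0.001 for Gad2, and with 0 UMIs of Adcyap1 and Bdnf their ratios had no value. Against other nuclei with Slc17a6 and no Slc32a1, where 3420 genes reached 250 UMIs, there were 56 and 76 genes and -0.61 for Gad2, and no ratio was taken for Slc17a6, which chose those nuclei. With at least 100 UMIs per gene 347 and 1398 genes passed, and with 500 there were 324 lower genes. The cause was not tested where the nuclei changed. Chosen in cluster 12 against others outside it, added after the data were seen, gave 1.69 for Slc17a6. No paired analysis was possible because there is 1 pooled library. Nr5a1 and Fezf1 had at most 1 UMI in any chosen nucleus, so a nucleus without one is not shown to lack the RNA.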
